A study of Mus musculus with 14 samples.

Results

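The Hox cluster genes are the protein-coding genes whose symbols begin with Hoxa, Hoxb, Hoxc or Hoxd, and 39 of the 46517 gene rows of the expression table belong to them. They were taken by symbol from every tumour library, with 11 genes of the Hoxa cluster, 10 of Hoxb, 9 of Hoxc and 9 of Hoxd. The table comes from RNA-seq of 14 mouse lung tumours of 2 engineered mouse models of SCLC, small cell lung cancer, which is a neuroendocrine tumour. Both models are Rb1 fl/fl and Trp53 fl/fl, and in both a Cre recombinase delivered by adenovirus from the Cgrp promoter, a promoter of pulmonary neuroendocrine cells, recombined the alleles in the lung. The 11 RPM tumours also carried the Cre-activated LSL-Myc (T58A) allele, of which 9 were LSL/LSL and 2, RPM replicates 2 and 4, were LSL/+. The 3 RPR2 tumours were instead p130 fl/fl (p130 is the product of Rbl2). All tumours were untreated and macro-dissected, so that each library also holds RNA of the lung around the tumour cells, and the sources used here do not give the ages of the animals. Nothing in the labels says which tumours came from separate animals, and p-values therefore measure only the spread between these tumours. Levels are in FPKM, the fragments of a gene scaled to the length of its transcripts and the size of the library, as the authors deposited them, and can therefore be compared between genes.

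Hox genes encode homeodomain transcription factors that give cells of the embryo their position along the body axis. In mammals they stand in 4 clusters in which all genes are read in the same direction. Genes with low numbers lie at the 3′ end, are switched on first and reach furthest towards the head, and genes with high numbers lie at the 5′ end and act in the trunk, limbs and tail. Genes of the same number in different clusters are paralogs. In the lung, Hoxa5 and Hoxb5 are known mainly from the mesenchyme, where they act in branching and in the patterning of the airway, and Polycomb complexes hold Hox clusters silent in cells that do not use them.

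On the GRCm38 assembly Hoxa spans chr6:52155590-52260880 on the minus strand, Hoxb chr11:96194316-96368256, Hoxc chr15:102921103-103036852 and Hoxd chr2:74668310-74765142, the last 3 on the plus strand. RefSeq start regions were at hand for 22 of the 39 genes, among them Hoxa5, Hoxb4 and Hoxb8 of the genes that reached 1 FPKM, and Hoxb1, which did not. The 250 bases before the start of these 4 are shown because they head genes of very different levels. Each is given 5′ to 3′ on the strand of its gene (RefSeq, GRCm38.p6). Hoxa5 is chr6:52204588-52204837 on the minus strand, and on the plus strand Hoxb1 is chr11:96365508-96365757, Hoxb4 chr11:96318017-96318266 and Hoxb8 chr11:96281655-96281904. Capitals mark matches, on either strand, to 6 motifs, namely the TATA box (TATAAA), the CCAAT box spelled by its name, the joint site of Pbx and Hox proteins (TGATNNAT), the site of Meis proteins (TGACAG), the half-site of retinoic acid and other nuclear receptors (AGGTCA) and the site of Cdx proteins (TTTATG), and no 2 matches overlap.
Hoxa5: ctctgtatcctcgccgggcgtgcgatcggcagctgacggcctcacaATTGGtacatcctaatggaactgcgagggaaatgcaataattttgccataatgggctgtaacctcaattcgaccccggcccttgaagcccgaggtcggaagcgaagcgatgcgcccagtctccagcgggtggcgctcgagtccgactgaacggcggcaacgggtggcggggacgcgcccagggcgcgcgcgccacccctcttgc
Hoxb1: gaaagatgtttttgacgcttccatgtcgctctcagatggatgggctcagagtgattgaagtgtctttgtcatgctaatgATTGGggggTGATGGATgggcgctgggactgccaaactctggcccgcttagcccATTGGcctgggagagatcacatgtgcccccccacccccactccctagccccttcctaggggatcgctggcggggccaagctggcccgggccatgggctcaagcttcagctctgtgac
Hoxb4: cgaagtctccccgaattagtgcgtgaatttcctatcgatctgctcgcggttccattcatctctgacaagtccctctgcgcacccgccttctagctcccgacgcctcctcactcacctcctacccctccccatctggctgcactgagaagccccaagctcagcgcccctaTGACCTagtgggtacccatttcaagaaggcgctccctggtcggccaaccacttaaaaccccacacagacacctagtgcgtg
Hoxb8: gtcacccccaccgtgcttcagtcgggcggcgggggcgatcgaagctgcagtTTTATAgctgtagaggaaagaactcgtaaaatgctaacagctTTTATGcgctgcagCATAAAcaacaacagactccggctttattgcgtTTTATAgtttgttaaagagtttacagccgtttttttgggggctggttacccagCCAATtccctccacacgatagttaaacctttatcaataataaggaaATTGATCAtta
The Hoxb8 region holds 2 matches to the TATA box, a CCAAT box, a joint Pbx and Hox site and 2 Cdx matches. Both TATA matches read on the opposite strand, 199 to 194 and 110 to 105 bases before the start. Hoxb4 holds a single nuclear receptor half-site, Hoxb1 a pair of CCAAT boxes and a joint Pbx and Hox site, and Hoxa5 a CCAAT box. Of 32851 mouse start regions of the same length, 12.4% hold a TATA box, 33.8% a CCAAT box, 7.68% a joint Pbx and Hox site, 15.9% a Meis site, 14% a nuclear receptor half-site and 10.8% a Cdx site. Hoxa5 has 28 CpG dinucleotides in this window, Hoxb4 14, Hoxb8 12 and Hoxb1 7, against a median of 6 over all start regions and of 12.5 over the Hox genes' 24 regions. These matches describe letters only and were set against no binding data.

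Of the table as a whole, each library was estimated from the steps of its lowest values to hold 17.4 to 20 M reads in RPM and 21.4 to 22.8 M in RPR2, so 3 reads on a transcript of 2 kb equal 0.0750 to 0.0862 FPKM in RPM and 0.0658 to 0.0701 in RPR2. Values at or under that level rest on a few reads, counting error only. Myc ranged over 48.4 to 384 FPKM in RPM, with 4.68, 6.83 and 13.6 in RPR2. Whole-gene levels of Rbl2 overlapped between the models, with 3.43 to 9.90 in RPM and 3.58, 7.55 and 3.34 in RPR2, and do not tell deleted from intact alleles. Rb1 ranged over 5.19 to 22.6 FPKM in RPM, with 39.4, 49.8 and 3.58 in RPR2.
A pair of libraries stood apart. RPR2 replicate 3 had alveolar type 2 markers summing to 51360 FPKM over 8 genes, against 1243 and 1963 in RPR2 replicates 1 and 2 and 17.6 to 876 in RPM. Its Chga, which encodes the neuroendocrine granule protein chromogranin A, was at 0.74 FPKM, whereas RPR2 replicates 1 and 2 had 588 and 361 and the RPM tumours 15.5 to 106. Of its neuroendocrine sum of 328 FPKM over 12 genes, Nkx2-1, a factor that alveolar cells also make, accounted for 309. RPM replicate 9 had Trp53 at 78.0 FPKM, against 7.93 to 16.1 in the other RPM tumours, and its description in the labels begins with a different number from theirs. The RPR2 descriptions begin with yet another number, and since the labels do not say what these numbers stand for, model and any shared handling cannot be told apart. Counts of genes called between the models are given with and without RPR2 replicate 3, and those of Hox genes also without RPM replicate 9.

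Hox expression in these tumours lay almost wholly in the middle of the Hoxb cluster. Of the 39 genes, 8 reached 1 FPKM in at least 3 of the 14 libraries, and 7 of them were Hoxb2 to Hoxb8, an unbroken run of neighbours. The eighth was Hoxa5. These 8 genes also reached the level without RPR2 replicate 3 and without RPM replicate 9. By cluster this is 1 of 11 Hoxa genes, 7 of 10 Hoxb genes, 0 of 9 Hoxc genes and 0 of 9 Hoxd genes. By position it is 0 of 3 genes of position 1, 8 of 20 genes of positions 2 to 8, and 0 of 16 genes of positions 9 to 13. Position 5 is the sole position with 2 genes above the level, Hoxa5 and Hoxb5.

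**Figure D1:**
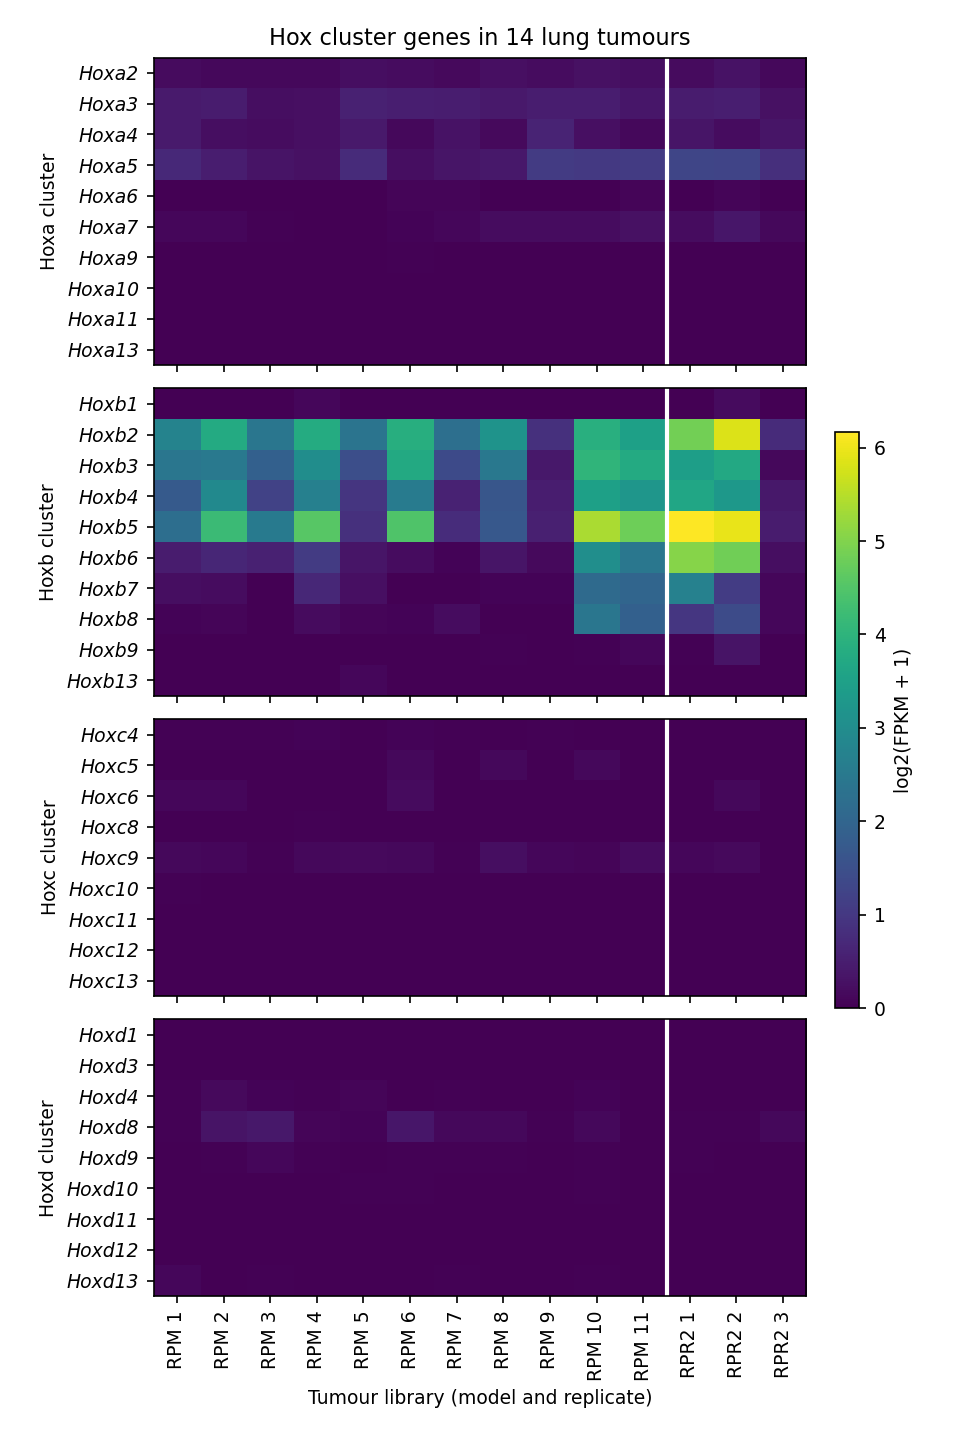
Heatmap of log2(FPKM + 1) for the Hox cluster genes reported here (rows, by cluster and from low to high position) in the 14 tumour libraries (columns, RPM left and RPR2 right of the white line). Signal runs from Hoxb2 to Hoxb8, up to 70.9 FPKM for Hoxb5, with Hoxa5 the only other row above 1 FPKM; RPM 9 and RPR2 3 are nearly blank in Hoxb.

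The other 31 genes never reached 1 FPKM in any library. The highest of them were Hoxa4 at 0.54 FPKM in RPM replicate 9 and Hoxa3 at 0.47 in RPM replicate 5. In Hoxd, Hoxd8 was highest with 0.31 FPKM, and in Hoxc, Hoxc9 with 0.17. Hoxb1, next to the expressed run on its 3′ side, was at 0 in 12 libraries and at 0.07 and 0.14 FPKM in RPM replicate 4 and RPR2 replicate 2. On the 5′ side Hoxb9 had at most 0.25 FPKM, in RPR2 replicate 2, and Hoxb13 at most 0.07. At the listed precision 10 genes were at 0 in all 14 libraries, namely Hoxa10, Hoxa11, Hoxa13, Hoxc11, Hoxc12, Hoxc13, Hoxd1, Hoxd3, Hoxd11 and Hoxd12. Of the 16 genes of positions 9 to 13, which act in the hind trunk, limbs and urogenital tract, 8 were among them. A value listed at 0 is below what this depth resolves. Just inside the level were Hoxb8, at 1 FPKM or more in 3 libraries, Hoxb7 in 4, and Hoxa5 and Hoxb6 in 5. Exons of Hoxd3 and Hoxd4 share 388 bases on the same strand, and those of Hoxc5 and Hoxc10 share 166. Other same-strand genes overlap members too, among them Gm28230, with 53.09% of the exonic bases of Hoxd3 and 39.15% of those of Hoxd4. Gm28308 overlaps 15.04% of the exonic bases of Hoxa2 and 8.015% of those of Hoxa3. The division of reads between such overlapping genes is uncertain.

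Among the expressed genes Hoxb5, at chr11:96303336-96306121, had the highest level of any Hox gene in 6 of 11 RPM tumours and in RPR2 replicates 1 and 2. In RPM it ranged from 0.45 to 40.97 FPKM with a median of 4.78 and a mean of 12.9 ± 13.7 (SD, n = 11). In RPR2 it was at 70.90, 61.30 and 0.38 FPKM. RPR2 replicates 1 and 2 lay above every RPM tumour and RPR2 replicate 3 below every one.
Hoxb2, known for its role in the hindbrain, ranged from 0.80 to 13.77 FPKM in RPM with a median of 8.04 and a mean of 8.20 ± 4.66 (SD, n = 11), and had 28.14, 56.41 and 0.69 in the RPR2 tumours. It led the family in 4 RPM tumours (replicates 1, 5, 7 and 8), where Hoxb5 was at 0.71 to 3.67 FPKM. Again RPR2 replicates 1 and 2 stood above all RPM tumours, and RPR2 replicate 3 under all of them.
Hoxb3 went from 0.31 to 15.34 FPKM in RPM (median 4.54), with 9.92, 12.25 and 0.10 in RPR2. Hoxb4, used experimentally to expand blood stem cells, went from 0.40 to 10.28 FPKM in RPM (median 2.34), with 11.50, 8.76 and 0.31 in RPR2. RPM replicates 10 and 11 were the highest RPM tumours for both genes. For Hoxb3, at 15.34 and 12.75 FPKM, they lay above all RPR2 tumours, and for Hoxb4, at 10.28 and 8.42 FPKM, both lay below RPR2 replicate 1 and replicate 11 also below RPR2 replicate 2.

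From Hoxb6 upward the genes were on in few tumours. Hoxb6, at chr11:96292476-96301569, was at 0.04 to 1.12 FPKM in 9 of the 11 RPM tumours and at 7.30 and 4.42 in RPM replicates 10 and 11 (RPM mean 1.38 ± 2.33, SD, n = 11). In RPR2 it was at 32.29, 27.55 and 0.17 FPKM. Hoxb7 was at most 0.61 FPKM in the same 9 RPM tumours, at 3.42 and 3.06 in RPM replicates 10 and 11, and at 5.60, 1.13 and 0.07 in RPR2. Hoxb8, a gene with roles in myeloid cells and the spinal cord, was at most 0.16 FPKM in those 9 tumours, at 4.33 and 2.72 in RPM replicates 10 and 11, and at 0.96, 1.64 and 0.07 in RPR2. Hoxb8 was therefore highest in RPM replicate 10, and Hoxb6 and Hoxb7 in RPR2 replicate 1.
The highest-numbered Hoxb gene at 1 FPKM or more was Hoxb3 in 2 RPM tumours, Hoxb5 in 5, Hoxb6 in 1 and Hoxb8 in 2, and RPM replicate 9 had none. In RPR2 it was Hoxb7 in replicate 1, Hoxb8 in replicate 2, and replicate 3 had none.

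**Figure D2:**
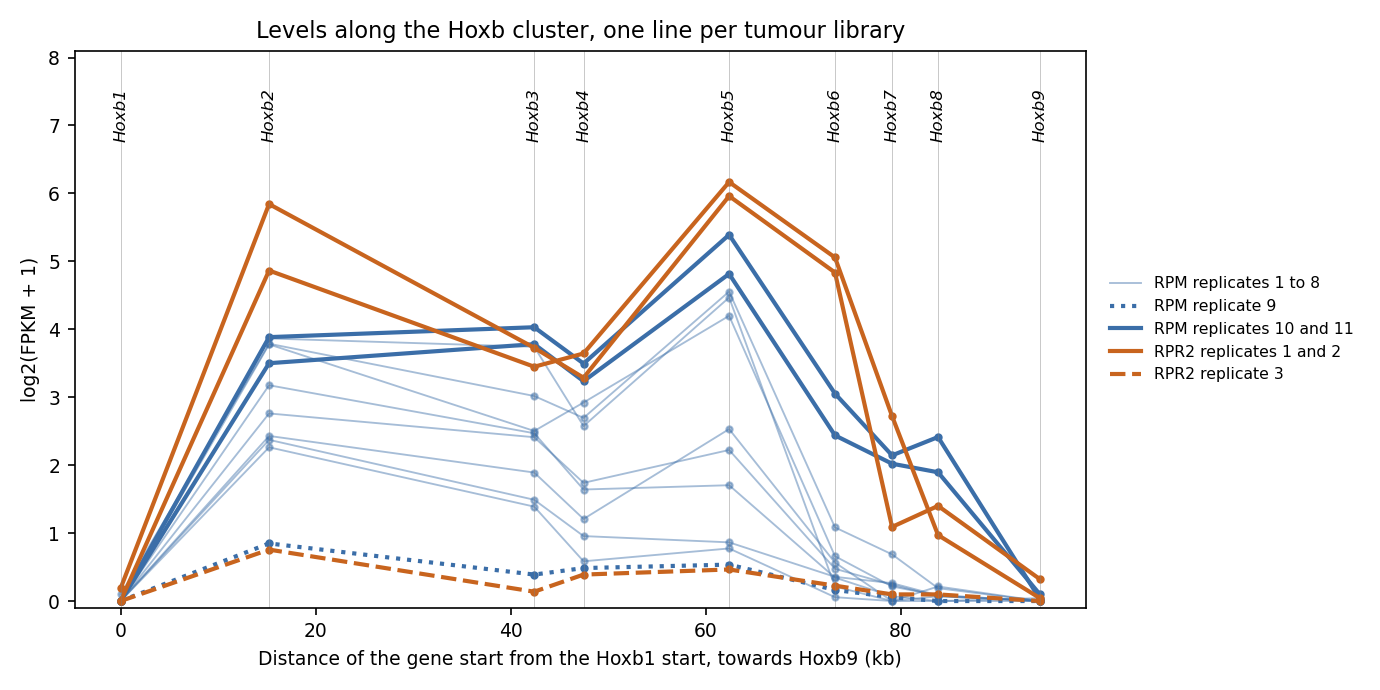
Levels of Hoxb1 to Hoxb9 as log2(FPKM + 1) against the distance of each gene's start from that of Hoxb1 in kb, with a line for each of the 14 tumours (RPM blue, RPR2 orange). The lines peak at Hoxb2 or Hoxb5 and most fall by Hoxb6, where RPM replicates 10 and 11 (7.30 and 4.42 FPKM) and RPR2 replicates 1 and 2 (32.29 and 27.55 FPKM) stay high.

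The shape of the profile changed between Hoxb5 and Hoxb6, which lie 1.77 kb apart. In the 8 RPM tumours with Hoxb5 at 1 FPKM or more, Hoxb6 was at 0.0076 to 0.178 times the Hoxb5 level. In RPR2 replicates 1 and 2 it was at 0.455 and 0.449 times. RPM replicate 6 shows the step most clearly, with 21.13 FPKM of Hoxb5 and 0.16 of Hoxb6. These ratios were looked at after the levels had been seen and were not tested. Summed over the 10 genes, Hoxb came to 2.12 to 95.4 FPKM in RPM with a median of 17.3, and to 159, 169 and 1.79 in RPR2. It made up 80.7% to 97.9% of all Hox FPKM in every RPM tumour except replicate 9 (45.5%), 98.4% and 98.3% in RPR2 replicates 1 and 2, and 52.5% in RPR2 replicate 3.

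Hoxa5, which in mice is needed for lung and tracheal development, behaved apart from Hoxb. It ranged from 0.17 to 1.12 FPKM in RPM with a median of 0.40, and was at 1.44, 1.41 and 0.77 in RPR2. Its 5 highest RPM tumours were replicates 1, 5, 9, 10 and 11, and 2 of them were among the 5 highest for Hoxb5. For Hoxb2, Hoxb3 and Hoxb4 the 5 highest RPM tumours were in each case the same as for Hoxb5, namely replicates 2, 4, 6, 10 and 11. Hoxb6 shared 4 of them and Hoxb7 3. Hoxb8 shared 3 or 4, because RPM replicates 2 and 5 tied at 0.06 FPKM for the last of its 5 places. In RPM, however, Hoxb7 and Hoxb8 reached 1 FPKM only in replicates 10 and 11, and Hoxb6 only in those and replicate 4. In the libraries nearly empty of Hoxb RNA, RPM replicate 9 and RPR2 replicate 3, Hoxa5 was the highest Hox gene, at 1.12 and 0.77 FPKM.

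**Figure D3:**
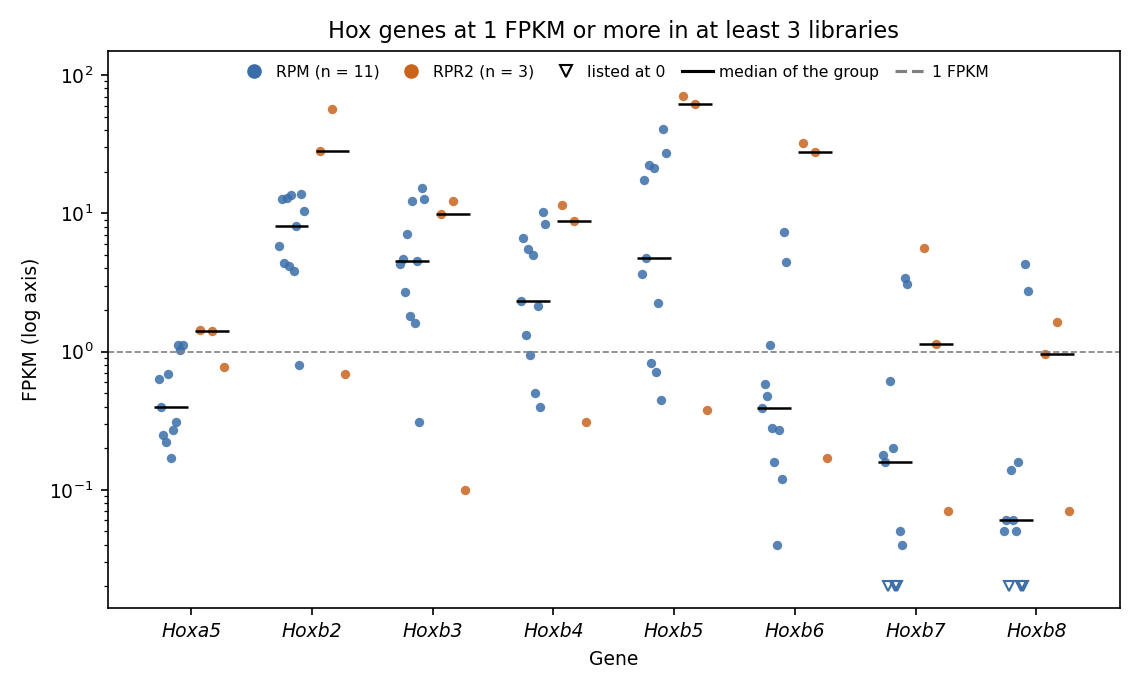
FPKM on a log axis for the 8 Hox genes that reached 1 FPKM (dashed line) in at least 3 libraries, with a point per tumour (RPM blue, n = 11; RPR2 orange, n = 3), bars at the group medians and open triangles for values listed at 0. RPR2 replicates 1 and 2 are above every RPM tumour for Hoxa5, Hoxb2, Hoxb5 and Hoxb6, and the third RPR2 point lies within or under the RPM range for each gene.

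The comparison of the models asks how SCLC with active Myc differs from the RPR2 model. With all 14 libraries only Hoxb6 was called, and it was lower in RPM. Its difference in log2(FPKM + 1) was -2.52 (SE 0.843; 95% interval -4.31 to -0.72), with a limma adjusted p of 0.0265 over 15719 genes. That is 1 of the 8 tested Hox genes lower and 0 higher, where 22.8% of all tested genes were called lower and 18.4% higher. At an unadjusted p under 0.05 limma gave 2 of the 8, Hoxb6 and Hoxa5, both lower, where 27.0% of all tested genes were lower and 22.2% higher at that threshold. The median difference of the 8 was -0.65, against -0.06 over all tested genes. The other 31 genes did not pass the filter on low values, so these counts describe only the expressed genes. With no filter 29 Hox genes were tested, and limma called 0 higher and 0 lower. Of all 30808 genes tested in that setting, 2657 were called higher and 4862 lower. The call on Hoxb6 was lost without a filter on low values (limma adjusted p = 0.0509), with a pseudocount of 0.1 (0.0679) or 0.01 (0.0899), and without RPR2 replicate 1 (0.187) or RPR2 replicate 2 (0.175).
Without RPR2 replicate 3, limma called 3 of the 8 lower in RPM and 0 higher, with 27.4% of all genes called lower and 16.4% higher. Hoxb2 differed by -2.38 (SE 0.640, adjusted p = 0.00804), Hoxb5 by -3.15 (SE 1.18, adjusted p = 0.0429) and Hoxb6 by -4.09 (SE 0.653, adjusted p = 0.000220). In this reduced set 4 of the 8 genes (Hoxa5, Hoxb2, Hoxb5 and Hoxb6) had every RPM tumour below both RPR2 tumours, as did 28.6% of all genes, while with all libraries 0 of 8 had groups that did not overlap, against 13.6% of all genes. Hoxa5 differed by -0.52 (SE 0.226, limma adjusted p = 0.0795) with all libraries and by -0.67 (SE 0.262, limma adjusted p = 0.0512) without RPR2 replicate 3.
For the other genes the interval of the difference included 0 with all libraries. It was -2.61 to 0.90 for Hoxb2, -1.63 to 1.69 for Hoxb3, -2.03 to 1.06 for Hoxb4 and -3.93 to 1.36 for Hoxb5. For Hoxb7 it was -1.94 to 0.37 and for Hoxb8 -1.42 to 0.69. These intervals are wide, and differences of more than 1 log2 unit lie inside each of them. Without RPM replicate 9 the single call remained Hoxb6 (-2.45, limma adjusted p = 0.0373), with 22.4% of all genes called lower and 18.2% higher.
In bulk tumours fewer cells that express a gene and less RNA per cell cannot be told apart. Reads of Hoxb2 and Hoxb3 may include the antisense Hoxb3os, which covers 27.3% of the exonic bases of Hoxb2 and 52.9% of those of Hoxb3, and the sources used here do not say whether the counting used strand.

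**Figure D4:**
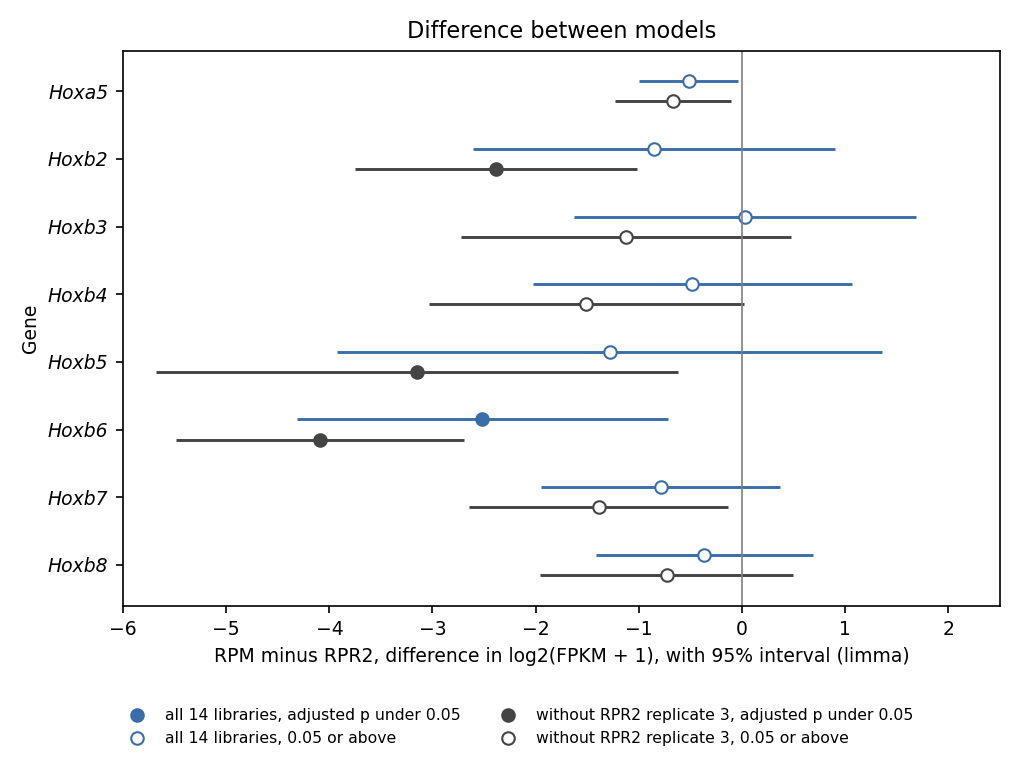
Difference between RPM and RPR2 in log2(FPKM + 1) for the 8 tested Hox genes with 95% intervals from limma, for all 14 libraries (blue) and without RPR2 replicate 3 (grey); filled points have an adjusted p under 0.05. Hoxb6 is filled in both sets, and Hoxb2 and Hoxb5 only without that library.

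Hoxb levels also varied widely inside RPM. Between the lowest and the highest RPM tumour Hoxb5 differed 91.0-fold, Hoxb3 49.5-fold, Hoxb4 25.7-fold and Hoxb2 17.2-fold, whereas Hoxa5 differed 6.59-fold. RPM replicate 9 was the lowest tumour for these 4 Hoxb genes, and without it the values were 57.7-fold for Hoxb5, 9.47-fold for Hoxb3, 20.6-fold for Hoxb4 and 3.62-fold for Hoxb2, with Hoxa5 at the same 6.59-fold. The titles give the same number to RPM replicates 6 and 7 and to replicates 10 and 11, although the labels do not say that these pairs shared a mouse. Replicates 10 and 11 were alike, with ratios of 0.911 to 1.65 over the 8 expressed Hox genes, and 0 of the 8 were 4-fold or more apart in FPKM + 1, as against 0.776% of all tested genes. Replicates 6 and 7 were not, since 2 of the 8, Hoxb3 (12.38 and 1.62 FPKM) and Hoxb5 (21.13 and 0.71), were 4-fold or more apart, where 1.88% of all tested genes were.
By Myc allele, the LSL/+ tumours (replicates 2 and 4) had Hoxb5 at 17.36 and 22.51 FPKM and Hoxb2 at 12.72 and 12.81, both inside the range of the 9 LSL/LSL tumours. Limma called 0 of 6 tested Hox genes between LSL/LSL and LSL/+, and 0.00673% of all tested genes. At an unadjusted p under 0.05 it was 0 of 6, against 17.3% of all genes. Hoxb5 differed by -1.79 (SE 1.19, limma adjusted p = 0.414) and Hoxb2 by -0.99 (SE 0.625, limma adjusted p = 0.390), LSL/LSL minus LSL/+.

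Other lineages were set beside these levels through marker lists. Among RPM tumours with much Hoxb5, replicates 2, 4 and 6 had Tcf21, a factor of lung mesenchyme, at 0.04, 0 and 0.04 FPKM, and Sftpc, the surfactant gene of alveolar type 2 cells, at 16.5, 3.84 and 1.62. Hoxb5 in these 3 tumours was at 17.36 to 22.51 FPKM. RPM replicates 10 and 11, with the most Hoxb5 in RPM (40.97 and 27.16 FPKM), had Tcf21 at 1.24 and 1.60 and Sftpc at 371 and 615. Other mesenchymal genes went both ways in replicates 2, 4 and 6. Pdgfra was at 0.27, 0.51 and 1.16 FPKM there, under its RPM median of 1.74. Lum was at 1.32, 0.10 and 0.33, under its RPM median of 1.33, and both were named after their values were seen. The fibroblast and mesenchyme list of 12 genes summed to 268, 242 and 345 FPKM in these 3 tumours. Postn, a matrix gene of fibroblasts named after its values were seen, was at 81.39, 60.19 and 75.64, its 3 highest values in RPM. RPM replicate 9 had Tcf21 at 1.92 and Hoxb5 at 0.45. Hoxa5 by contrast was highest in RPM where Tcf21 was at 0.94 FPKM or more (replicates 1, 5, 9, 10 and 11), and in RPR2 replicates 1 and 2 Tcf21 was at 1.98 and 4.42. Alveolar type 2 markers summed to 488 to 876 FPKM in those 5 RPM tumours and to 17.6 to 133 in the other 6, and alveolar type 1 markers, 6 genes, to 117 to 229 and 20.3 to 63.3. Endothelial markers, 8 genes, summed to 67.2 to 88.4 FPKM in the 5 and to 30.7 to 51.3 in the 6. Club and ciliated markers, 7 genes, summed to 599 to 1640 FPKM in the 5 and to 2.09 to 571 in the 6. A club-cell gene alone made up most of each sum in the 5. The fibroblast and mesenchyme sums of these RPM tumours overlapped, at 247 to 391 and 207 to 467 FPKM, and were 308, 212 and 135 in RPR2. The part of these cells in the Hoxa5 and Hoxb5 levels was not tested.
Neuroendocrine markers summed to 292 to 1439 FPKM in RPM and to 3480 and 4852 in RPR2 replicates 1 and 2, the libraries with most Hoxb5 and Hoxb6. RPM replicate 9 had a neuroendocrine sum of 1164, with Chga at 100.07 FPKM, and all its Hoxb genes were under 1 FPKM. Club and ciliated markers, 7 genes, summed to 3538 and 25840 FPKM in RPR2 replicates 1 and 2. The sums were 960 in RPR2 replicate 3 and 2.09 to 1640 in RPM. A club-cell gene alone made up most of the sums of RPR2 replicates 1 and 2, so these say little about ciliated cells. Endothelial markers summed to 316, 394 and 59.4 in RPR2 and 30.7 to 88.4 in RPM, and Vwf alone made up 238 and 329 FPKM of the first 2 sums. The part of these cells in the Hoxb levels within RPM, or in the difference of Hoxb6 between the models, was not tested.

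**Figure D5:**
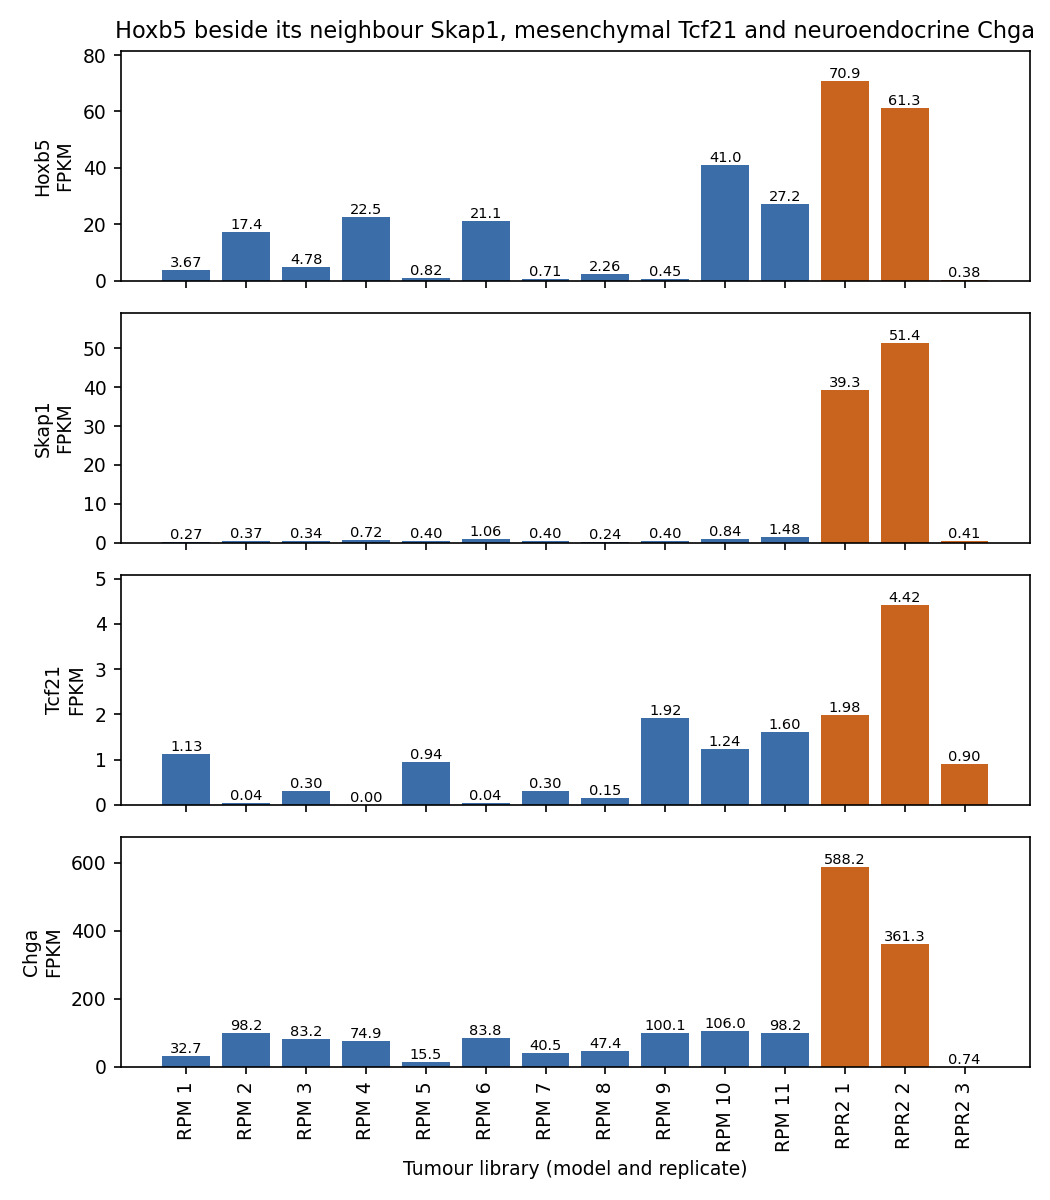
FPKM of Hoxb5, the neighbouring gene Skap1, mesenchymal Tcf21 and neuroendocrine Chga in each of the 14 tumours (RPM blue, RPR2 orange; the value is printed on each bar). Hoxb5 is at 17.36 to 22.51 FPKM in RPM replicates 2, 4 and 6 where Tcf21 is at 0.04 or less while the 12 genes of the mesenchyme list sum to 268, 242 and 345, and RPM replicate 9 has 100.07 FPKM of Chga with 0.45 of Hoxb5. RPM replicates 10 and 11 have 40.97 and 27.16 FPKM of Hoxb5 with Tcf21 at 1.24 and 1.60.

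The genes next to each cluster were measured beside it. Skap1, which encodes an adaptor of T-cell receptor signalling and lies 96.3 kb beyond Hoxb1, ranged over 0.24 to 1.48 FPKM in RPM, with 39.28, 51.44 and 0.41 in RPR2. It was lower in RPM (limma, -3.21, SE 0.724, adjusted p = 0.00262). Its 2 high tumours were those that led for Hoxb5, but unlike Hoxb5 it was at most 1.48 FPKM in every RPM tumour. Ttll6, 28.9 kb beyond Hoxb13, was at most 1.26 FPKM. At the 3′ end of the Hoxa cluster Skap2, an adaptor of myeloid cells, ranged over 3.14 to 11.96 FPKM in RPM, with 28.05, 41.19 and 30.88 in RPR2 (limma, -2.32, SE 0.304, adjusted p = 3.37e-05). Beside the silent Hoxc and Hoxd clusters Calcoco1 ranged over 10.6 to 18.9 FPKM in RPM, with 22.7, 39.3 and 37.8 in RPR2 (limma, -1.07, SE 0.187, adjusted p = 0.000382), and Mtx2, a mitochondrial import gene, at 33.2 to 78.4 in RPM and 33.1, 30.4 and 58.8 in RPR2. Smug1, on the Hoxc4 side, ranged over 2.35 to 5.82 FPKM in RPM, with 7.37, 8.86 and 3.39 in RPR2. Without RPR2 replicate 3, limma kept Skap1 (-4.89, adjusted p = 4.73e-08), Skap2 (-2.36, 0.000163) and Calcoco1 (-0.96, 0.00250) lower in RPM and also called Smug1 lower (-0.78, 0.0166) and Mtx2 higher (0.73, 0.0196). Of all tested genes 22.8% were called lower and 18.4% higher with all libraries, and 27.4% and 16.4% without RPR2 replicate 3. Evx1 and Evx2, homeobox genes at the 5′ ends of Hoxa and Hoxd, were at most 0.05 FPKM.

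Of 22 noncoding RNAs of the clusters found in the table, 12 were at 0 in every library, including Hotair, Hottip and the hairpin rows of the miR-10 and miR-196 families, which libraries selected for poly(A) tails do not measure. Among the 3 that could be tested, 1 was called higher and 0 lower in RPM, against 18.4% and 22.8% of all tested genes. The 1 called was Halr1, a long noncoding RNA on the 3′ side of the Hoxa cluster. It was at 0.39 to 8.81 FPKM with a median of 3.49 in RPM and at 0, 0.37 and 0.09 in RPR2 (limma, 1.63, SE 0.478, adjusted p = 0.0132; 1.60 and 0.0364 without RPR2 replicate 3). The other pair, named after their values were seen, were Hoxb3os, with 0.02 to 2.63 FPKM in RPM against 5.74, 8.18 and 0.04 in RPR2, and Hotairm1, at 0.08 to 2.33 in RPM and 0.33, 0.51 and 1.86 in RPR2. Hoxb3os, like Hoxb2, was highest in RPR2 replicates 1 and 2, and without RPR2 replicate 3 limma called it lower in RPM (-1.80, adjusted p = 0.00117).

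The RNA of genes whose proteins work with or control Hox genes was described by lists, set against the 18.4% of all genes called higher and 22.8% called lower (16.4% and 27.4% without RPR2 replicate 3). All 9 TALE cofactors, the homeodomain partners of Hox proteins, were tested; 1 rose and 1 fell in RPM, with a median of -0.21. Pbx2 fell from 34.8, 44.7 and 31.5 FPKM in RPR2 to 14.6 ± 2.68 (SD, n = 11) in RPM (limma, -1.30, SE 0.186, adjusted p = 7.33e-05), and Meis1 rose from 1.02, 0.87 and 0.31 to 5.39 ± 4.23 (SD, n = 11; limma, 1.67, SE 0.467, adjusted p = 0.0102). Without RPR2 replicate 3 the counts were 1 and 5 of 9 and the median -0.79, beside 16.4% and 27.4% of all genes and a median of -0.20. All 13 genes named from the 4 lists described here kept their call and direction without that library, with limma adjusted p-values of up to 0.0424 (Meis1).
Of 22 Polycomb genes 2 rose and 7 fell in RPM, with a median of -0.12. Ezh2, the main H3K27 methyltransferase, rose from 56.5, 51.9 and 46.0 FPKM to 92.6 ± 15.3 (SD, n = 11), while its paralog Ezh1 fell from 16.2, 26.4 and 8.11 to 5.54 ± 1.44 (SD, n = 11). Phf1, which guides the same complex, fell from 15.8, 23.7 and 23.4 to 4.75 ± 0.550 (SD, n = 11), and Cbx7, a reader of its mark, from 36.7, 34.3 and 11.4 to 6.31 ± 1.33 (SD, n = 11). Adjusted p-values from limma were 0.000596, 0.00180, 6.99e-07 and 0.000148 in that order. Without RPR2 replicate 3 the counts were 1 and 9 of 22, beside 16.4% and 27.4% of all genes, and the median was -0.37.
Of 14 trithorax and MLL genes, which keep Hox genes active, 3 rose (Ash2l, Mllt1 and Wdr5) and 0 fell, with a median of 0.08. Ash2l, a core subunit of these methyltransferases, rose from 32.2, 34.3 and 42.5 FPKM to 55.8 ± 5.56 (SD, n = 11) (limma, 0.61, SE 0.126, adjusted p = 0.00143). Without RPR2 replicate 3 the counts were 3 and 1 of 14 and the median -0.11.
Retinoic acid, a vitamin A derivative that switches on 3′ Hox genes in the embryo, was represented by 18 genes, of which 15 were tested, 2 rose and 6 fell in RPM (median -0.32). Rarg, a receptor, fell from 6.72, 13.7 and 18.1 FPKM to 1.93 ± 0.913 (SD, n = 11), and Aldh1a3, which makes retinoic acid, from 40.0, 102 and 3.42 to 1.06 ± 0.619 (SD, n = 11). Dhrs3, which turns retinal back into retinol, fell from 17.9, 49.6 and 79.8 to 5.52 ± 2.41 (SD, n = 11), and Rdh10, which makes retinal, from 8.51, 8.12 and 8.34 to 3.28 ± 0.904 (SD, n = 11). Adjusted p-values from limma were 4.94e-05, 0.000226, 9.78e-05 and 0.000493. Without RPR2 replicate 3 the counts were 1 and 6 of 15 and the median -0.48. Rarg and Dhrs3 were highest in RPR2 replicate 3, where every Hoxb gene was under 1 FPKM. Aldh1a3 went the other way, and was lower there than in RPR2 replicates 1 and 2. A link between these genes and the Hoxb levels was not tested.
Cdx1, Cdx2 and Cdx4, activators of middle Hox genes in the embryo, were at most 0.09 FPKM in any library, as were Gsx1, Gsx2 and Pdx1.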

How the data were processed

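RNA-seq of 14 tumours was used, in groups taken from the genotype labels and, for the Myc allele, the source names, with each column of the single deposited table matched to a sample by title. The values are FPKM that the authors computed per gene and library. Tools and build, per the submitters' processing notes, were Bowtie 1.0.1, RSEM 1.2.12 and mm10. Libraries were stranded and poly(A)-selected, per the labels' protocols; the sources used here do not give the annotation, the use of strand in counting or a scaling between libraries. RSEM shares out ambiguous reads, on which values of paralogs and overlapping genes depend. A reporter row without an Ensembl identifier (1 of 46518) was left out. Symbols and coordinates are those of GENCODE M21 on GRCm38, the assembly of mm10, and were found for 46005 of 46517 identifiers.

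The table holds no counts. Depth was estimated from the spacing of low FPKM values in short genes with a single transcript, where reads counted as whole within 0.15, and no count model was fitted. Genes at 1 FPKM or more in at least 3 libraries were tested on log2(FPKM + 1), pseudocount 1, with limma 3.58.1 in R 4.3.3 (empirical Bayes with trend, two-sided, Benjamini-Hochberg over all genes tested, threshold 0.05). Differences are on this scale, which understates those of low genes. The fit was tested on simulated data. Lists are described by counts and medians beside all genes. The Hox genes, lists and tests were chosen with earlier results of these data known. Every Hox gene and cluster flank could be named, and from each list up to 4 called genes, by smallest p, or up to 2 if no gene was called. Other list genes, among them Tcf21, Sftpc and Chga, fall outside this rule and count as named after their values were seen. Of 31 listed noncoding RNA names, 22 had a row. Alternatives were other pseudocounts, filters and scalings, array weights, LSL/LSL tumours alone, a random effect of the title number, and leaving out each library. Start regions are from RefSeq. A Hox gene and a marker gene are not reported here and stay in the counts and sums.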

Additional observations from a re-analysis of the deposited data

How the results depend on the processing

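That 0 Hox genes were called higher in RPM held under all 24 alternatives. The count called lower, 1, became 0 with a pseudocount of 0.1 or 0.01 and with no filter. It became 5 with array weights, where 6577 of all 15719 tested genes were called lower. Leaving out each library in turn gave 0 to 3 (0 without RPR2 replicate 1 or 2, and 3 without RPR2 replicate 3). For LSL/LSL against LSL/+ it stayed at 0 in all 16. The number of genes that reached the level was 5 at a level of 5 FPKM, 6 at 2 FPKM and 7 or 8 elsewhere. Differences that changed sign were those of Hoxb3, from 0.03 to -0.16 with TPM scaling, -1.11 with array weights, -0.039 with LSL/LSL tumours only, -0.12 with a random effect of the title number, and -1.12 to 0.67 on leaving out each library. Leaving out each library gave -2.38 to 0.16 for Hoxb2 and -1.51 to 0.12 for Hoxb4, positive without RPR2 replicate 2 and without RPR2 replicate 1 respectively. TPM scaling moved the median of all genes to -0.24, with 1900 genes called higher and 3839 lower, against 2897 and 3586 as deposited; the cause was not tested. Hoxb8 could not be tested without RPM replicate 10, RPM replicate 11 or RPR2 replicate 2, because it then fell under the filter. No paired analysis was possible because the labels link no RPM tumour to an RPR2 tumour. With 3 RPR2 tumours, 1 of which stood apart, intervals of the differences are wide, and values near 0.08 FPKM rest on about 3 reads.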
